A study of Homo sapiens with 12 samples.

Results

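Knockdown of linc-ADAIN was compared with a scramble control in adipocytes that received no lipopolysaccharide (LPS), and the comparison is described here across all genes and by gene function. The genes that encode cytokines, the core adipogenic genes and the genes that went between silent and expressed were set aside, except where they serve as cell type markers. The comparison used 6 of the 12 libraries of the series, 3 in the scramble group and 3 in the linc-ADAIN KD group. The other 6 libraries had received LPS at 100 ng/mL for 4 h, and they served only to see whether the same genes differed there. The cells of all groups were ASC52telo hTERT, an adipose-derived mesenchymal stem cell line that was immortalized with telomerase. Both groups had a wild-type genotype, carried a lentiviral hairpin with a ZsGreen reporter, were sorted for ZsGreen, and were differentiated for 14 days. Insulin, dexamethasone, isobutylmethylxanthine and rosiglitazone were present for the first 7 days, and insulin and dexamethasone without the other agents for the last 7. The groups differed in the hairpin, which was either a scramble sequence or a hairpin against linc-ADAIN (LINC01230), a long intergenic noncoding RNA. Each group was a sorted, transduced population of 1 cell line, and the study describes the libraries of a group as triplicates of a single experiment. The p-values therefore measure the spread between libraries of 1 experiment and not between experiments.

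White adipocytes form from fibroblast-like stromal cells that leave the cell cycle, take apart their stress fibres and remodel the matrix around them as they begin to store lipid. A long noncoding RNA has no protein product, and its loss can be read in the messenger RNAs of the cell. Poly(A) RNA was sequenced here, and the unit of every level below is CPM, the counts of a gene per 1000000 counts on all named genes in that library, scaled by the trimmed mean of M values. A fold change is given as log2 of linc-ADAIN KD over scramble with its standard error, and a gene is said to have risen or fallen when its adjusted p was under 0.05 in edgeR's quasi-likelihood test. CPM is not divided by transcript length, so levels are compared between libraries and not between genes.

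The 3 scramble libraries held 48094472 to 53837400 counts on named genes and the 3 KD libraries 33405328 to 50533430. Levels correlated at 0.991 to 0.994 within the scramble group, at 0.986 to 0.987 within the KD group and at 0.957 to 0.965 between groups, and no library stood apart from its group. The targeted RNA is not analysed here, so the extent of the knockdown was not checked in these libraries. Adipocyte markers were present in both groups. Of 18 tested adipocyte markers none rose and 14 fell, and their summed level was 4742 to 6175 CPM in scramble and 929 to 2424 CPM in KD libraries. ADIPOQ measured 738, 896 and 1158 CPM in scramble against 523, 397 and 144 CPM in KD. For day-14 knockdown adipocytes the study reported more stored lipid and higher adipogenic markers, adiponectin among them, by qPCR and western blot. The reason for the opposite direction in these libraries was not tested. Fewer adipocytes and less adipocyte RNA per cell cannot be told apart in bulk libraries. LEP, LPL and SLC2A4 had at most 82 counts in any of the 6 libraries, so these markers of mature fat cells were near the floor in both groups. Adipose stromal markers summed to 10215 to 12080 CPM in scramble and 13873 to 15511 CPM in KD libraries, with 6 of 13 risen and 3 fallen. Among the leukocyte markers, AIF1 and TYROBP had 0 counts and PTPRC at most 12, and among the endothelial markers CLDN5 had 0 counts and CDH5 at most 3. Other members were present. The 6 tested leukocyte markers summed to 58.8 to 62.6 CPM in scramble and 90.9 to 121 CPM in KD libraries, with 1 risen and 1 fallen. The member that rose was CD163, whose levels are given below, and the median fold change of the 6 was -0.40 on the log2 scale. The 8 tested endothelial markers summed to 24.8 to 28.5 CPM in scramble and 13.1 to 13.7 CPM in KD libraries, with 2 fallen.

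Genes changed in both directions, and the genes that fell at least 2-fold held a larger part of all counts than those that rose. Of 16217 genes tested, 27.2% passed the adjusted p threshold, 12.1% as higher and 15.1% as lower in KD. The counts of list members below are to be read beside these shares. When a change of 2-fold or more was also asked for, 7.77% of genes passed, 4.28% higher and 3.49% lower. At a mean of 100 CPM or more, 30 genes were at least 2-fold higher and 123 at least 2-fold lower. The genes at least 2-fold lower took 8.79 to 9.48% of all counts in the scramble libraries and 3.31 to 3.73% in the KD libraries. Those at least 2-fold higher took 0.738 to 0.800% and 2.64 to 2.98%.

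The direction of small changes depended on the scaling. With library size as the only scaling, the median fold change of all genes moved from 0.024 to 0.129 on the log2 scale, and the genes past the adjusted p threshold went from 1965 higher and 2446 lower (44.5% higher) to 2793 higher and 1757 lower (61.4%). The genes changed at least 2-fold went from 694 higher and 566 lower (55.1% higher) to 846 and 476 (64.0%). Every fold change in the text is given with the trimmed mean scaling. A gene with a small change should be read against that move of the median from 0.024 to 0.129. In 42.6% of the genes tested the 3 KD libraries did not overlap the 3 scramble libraries, and the smallest two-sided p that an exact permutation test of 3 against 3 libraries can reach is 0.1.

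**Figure D1:**
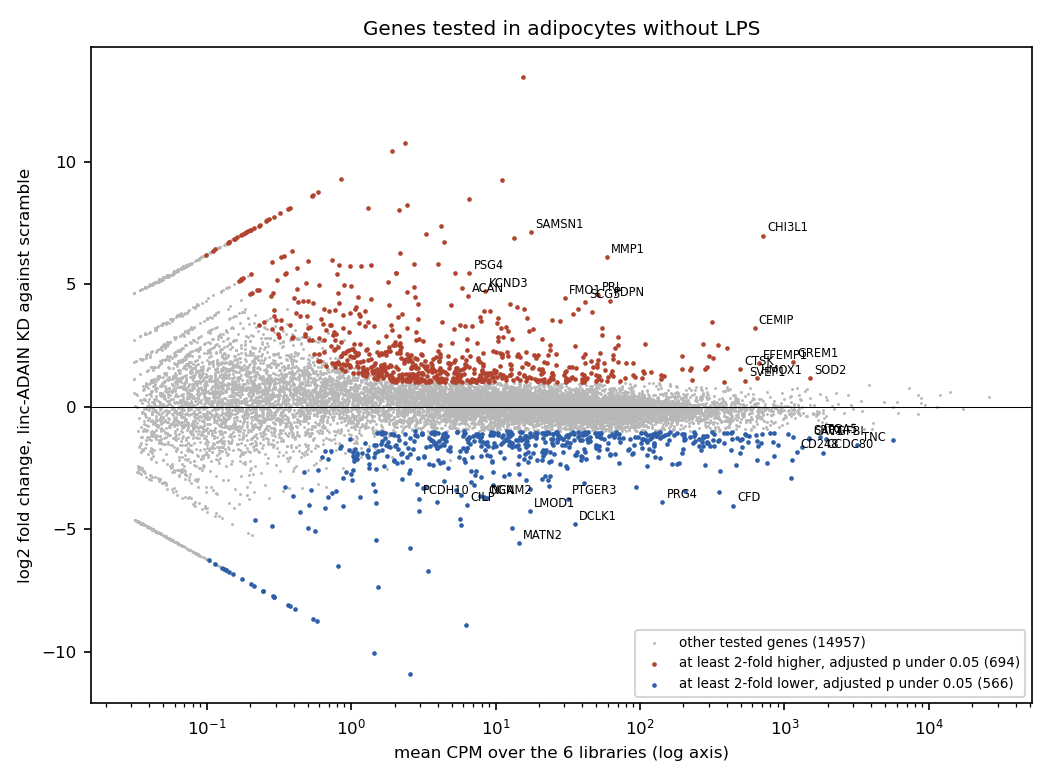
Each point is a gene, with its mean level over the 6 libraries without LPS (CPM, log axis) on the x axis and its log2 fold change, linc-ADAIN KD over scramble, on the y axis. Genes past the adjusted p threshold and changed 2-fold or more are coloured, 694 higher and 566 lower, and at 100 CPM or more the lower ones outnumber the higher ones, 123 to 30.

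The steepest rises among genes with no fewer than 10 counts in each library and non-overlapping groups were in an adaptor, a secreted lectin and a collagenase. SAMSN1 (chr21:14485228-14658821, GRCh38), an adaptor protein best known from lymphocytes, measured 0.192, 0.231 and 0.327 CPM in scramble and 27.9, 35.5 and 41.1 CPM in KD libraries. The groups were far apart, and the fold change was 7.12 on the log2 scale (SE 0.23, adjusted p = 9.3e-09). CHI3L1 (chr1:203178931-203186704), which encodes the secreted chitinase-like lectin YKL-40, measured 5.01, 8.63 and 19.6 CPM in scramble and 1235, 1240 and 1751 CPM in KD libraries, a 128-fold difference (log2 7.00, SE 0.43, adjusted p = 3.3e-07). The 3 KD libraries lay far above the 3 scramble libraries. MMP1, the interstitial collagenase, measured 2.09, 1.71 and 1.16 CPM in scramble and 93.2, 103 and 154 CPM in KD, with no overlap (log2 6.13, SE 0.24, adjusted p = 2.3e-08). PRL, the hormone prolactin, measured 4.44, 3.42 and 4.56 CPM against 82.9, 96.7 and 114 CPM (log2 4.56, SE 0.15, adjusted p = 9.3e-09). PDPN, the mucin-type surface protein podoplanin, measured 6.74, 6.44 and 4.10 CPM in scramble and 112, 112 and 128 CPM in KD.

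The remaining 5 of the 10 steepest rises were of other kinds. KCND3, a subunit of a transient outward potassium channel, went from 0.610 ± 0.215 to 16.3 ± 1.39 CPM (SD, n = 3 in each group). ACAN, the cartilage proteoglycan aggrecan, went from 0.531 ± 0.0446 to 12.3 ± 2.97 CPM. FMO1, a flavin monooxygenase, went from 2.65 ± 1.25 to 57.9 ± 8.54 CPM. SCG5, a chaperone of neuroendocrine secretory granules, went from 4.04 ± 1.34 to 78.7 ± 19.2 CPM. PSG4, a pregnancy-specific glycoprotein, rose by 5.47 on the log2 scale, but it belongs to a family of near-identical genes between which reads may have been divided.

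The steepest falls included secreted and matrix proteins and contractile regulators. MATN2, the matrix adaptor matrilin-2, measured 24.5, 29.5 and 31.3 CPM in scramble and 0.908, 0.640 and 0.275 CPM in KD libraries, which did not overlap (log2 -5.56, SE 0.27, adjusted p = 9.7e-08). DCLK1, a microtubule-associated kinase, measured 49.6, 72.0 and 83.3 CPM in scramble and 3.57, 2.09 and 1.95 CPM in KD (log2 -4.77, SE 0.24, adjusted p = 1.1e-07). LMOD1 (chr1:201896456-201946548), leiomodin, which nucleates actin filaments in smooth muscle, measured 18.8, 41.7 and 38.1 CPM against 2.17, 1.30 and 1.80 CPM. The lowest scramble library was well above the highest KD library for each of them. CFD, the complement protease adipsin that fat cells secrete, measured 795, 896 and 812 CPM in scramble and 72.0, 39.2 and 42.8 CPM in KD (log2 -4.03, SE 0.20, adjusted p = 9.8e-08). PRG4, the lubricating proteoglycan lubricin, measured 209, 270 and 324 CPM in scramble and 23.9, 20.5 and 9.61 CPM in KD.

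Among the other steep falls, PTGER3, a prostaglandin E2 receptor, measured 54.7, 51.4 and 71.8 CPM in scramble and 4.89, 5.48 and 2.80 CPM in KD. CILP, a matrix protein of cartilage, fell by 4.00 on the log2 scale, from 11.9 ± 3.26 to 0.750 ± 0.196 CPM. PCDH10, a protocadherin, fell by 3.74, and so did NCAM2, a neural cell adhesion molecule, by the same 3.74 to 2 decimals. OGN, the small proteoglycan osteoglycin, varied within its groups, at 22.1, 17.3 and 7.57 CPM in scramble and 1.08, 2.05 and 0.275 CPM in KD (log2 -3.74, SE 0.52, adjusted p = 0.00024).

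Several of the most abundant transcripts of these cells also moved. TNC, the matrix glycoprotein tenascin-C, measured 4442, 5032 and 4847 CPM in scramble and 1752, 1505 and 1623 CPM in KD (log2 -1.55, SE 0.08, adjusted p = 1.1e-07). CAV1, the coat protein of caveolae, which are dense on the adipocyte surface, measured 2007, 2101 and 2234 CPM against 898, 843 and 800 CPM. For each of these genes the 3 KD libraries lay below all 3 scramble libraries, which was a condition for naming them. CD248, the stromal surface protein endosialin, measured 2054, 1933 and 1721 CPM in scramble and 631, 427 and 530 CPM in KD. TGFBI, CCDC80, ITGA5 and SRPX, all of them matrix or matrix receptor genes, were also among the 8 most abundant falls, at log2 -1.31, -1.86, -1.23 and -1.27.

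Fewer abundant genes rose. CEMIP (chr15:80779343-80951776), a hyaluronan-degrading protein, measured 156, 111 and 97.1 CPM in scramble and 1010, 1149 and 1207 CPM in KD (log2 3.21, SE 0.16, adjusted p = 9.8e-08). SOD2, the mitochondrial superoxide dismutase, measured 843, 1019 and 872 CPM in scramble and 2115, 2220 and 1902 CPM in KD (log2 1.19, SE 0.09, adjusted p = 1.8e-06). GREM1, a secreted antagonist of bone morphogenetic proteins, measured 554, 522 and 424 CPM against 1484, 1882 and 2050 CPM. That none of these groups overlapped was a condition for naming the genes. EFEMP1, an elastic fibre protein, went from 295 ± 22.1 to 1028 ± 87.6 CPM, and CTSK, the collagen-cleaving cathepsin K, from 254 ± 40.4 to 734 ± 11.5 CPM. HMOX1, the haem oxygenase, rose by 1.18 and SVEP1, a large matrix adhesion protein, by 1.07 on the log2 scale.

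**Figure D2:**
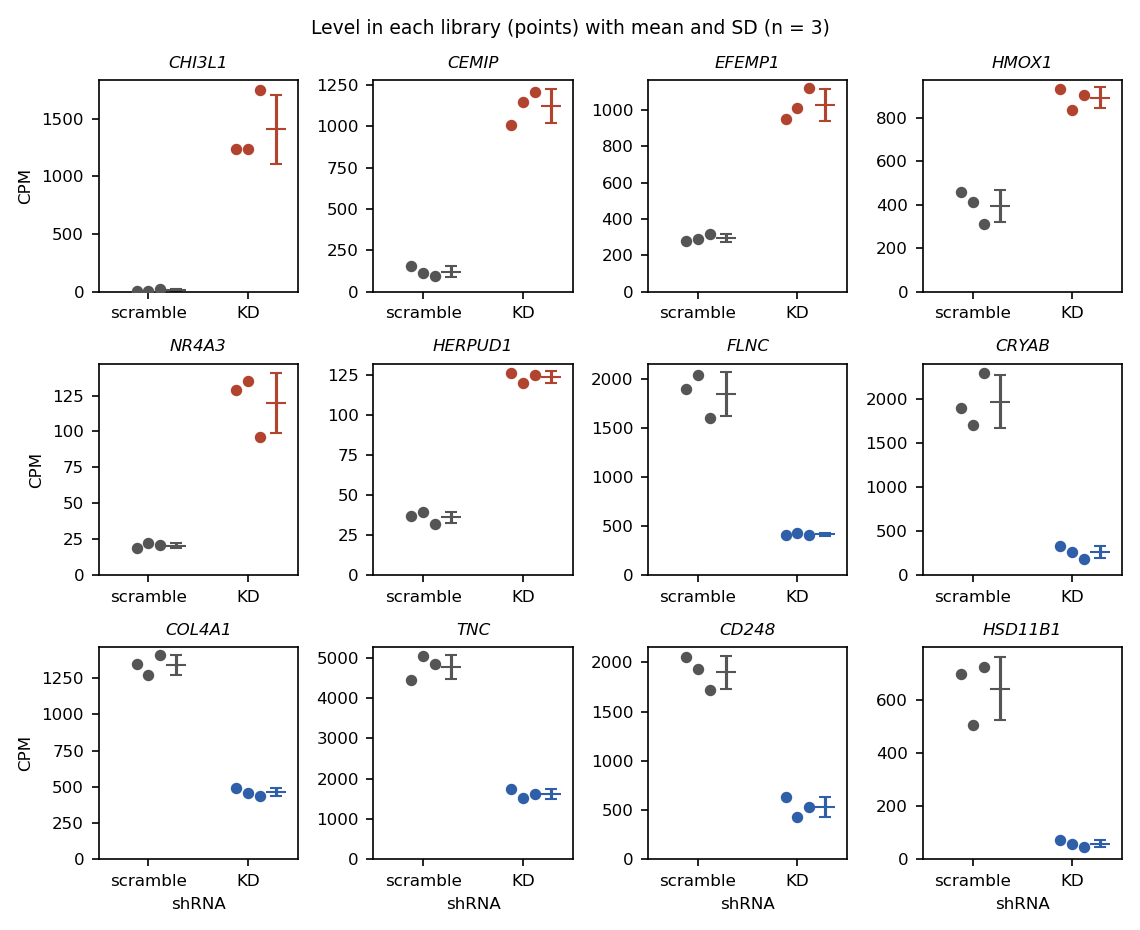
Level (CPM, linear axis from 0) in each of the 6 libraries without LPS as points, with the mean and SD of each group of 3 beside them, for 12 genes of the text, each on its own scale. KD libraries are in red where the gene rose (CHI3L1, CEMIP, EFEMP1, HMOX1, NR4A3, HERPUD1) and in blue where it fell (FLNC, CRYAB, COL4A1, TNC, CD248, HSD11B1). The groups do not overlap for any gene drawn, which the rule for naming the steepest and most abundant genes required.

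Contractile and actin cytoskeleton genes fell together. Of 41 members tested 29 fell and 1 rose, where 15.1% and 12.1% of all genes did, and the median fold change was -0.80 on the log2 scale against 0.024 for all genes. The summed level of the list was 18251, 19032 and 17044 CPM in the scramble libraries and 11231, 10982 and 12281 CPM in the KD libraries. FLNC, the actin crosslinker filamin C, measured 1897, 2037 and 1599 CPM in scramble and 412, 428 and 407 CPM in KD (log2 -2.15, SE 0.09, adjusted p = 5.7e-08). TAGLN, the smooth muscle actin-binding protein transgelin, measured 694, 868 and 764 CPM against 232, 218 and 291 CPM. CNN1, calponin, which damps actomyosin, measured 17.6, 26.4 and 16.5 CPM against 2.75, 1.98 and 3.83 CPM. The KD libraries were below the scramble libraries without exception for these genes, which the rule for naming the steepest members required. ACTA2, smooth muscle actin, fell by 0.90 and FLNA, the widely expressed filamin A, by 0.52 on the log2 scale. The single member that rose was CSRP2, a LIM-domain protein, at 5.61, 5.69 and 6.19 CPM in scramble and 23.9, 23.4 and 24.5 CPM in KD (log2 2.04, adjusted p = 2.3e-07). Smooth muscle and pericyte markers, some of which are also in the contractile list, summed to 887 to 1065 CPM in scramble and 267 to 337 CPM in KD, with 6 of 10 fallen. Their defining members MYH11 and DES had at most 32 and 17 counts in any library, and the part of such cells in the result was not tested.

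The promoters of contractile genes often hold a CArG box, the element read by serum response factor, and those of 2 members that fell are shown because they hold it. The CArG box was found, on either strand, in the window from 250 bases before to 50 bases after the start in 8 of 36 promoters of the list (22.2%) and in 6 of the 27 whose gene passed the test, beside 1.19% of all 12043 promoters matched. FHL2, a LIM-domain protein, had the smallest adjusted p of the members that passed and hold the box before the start, at 304, 304 and 271 CPM in scramble and 154, 146 and 143 CPM in KD (log2 -0.99, adjusted p = 2.2e-06), and FLNA was the next. Both stretches are from RefSeq (GRCh38), FHL2 at chr2:105438570-105438649 on the minus strand and FLNA at chrX:154374684-154374763 on the minus strand, with the CArG box in capitals. A match is a description of letters and not of binding.
FHL2: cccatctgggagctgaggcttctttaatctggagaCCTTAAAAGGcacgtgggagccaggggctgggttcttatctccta
FLNA: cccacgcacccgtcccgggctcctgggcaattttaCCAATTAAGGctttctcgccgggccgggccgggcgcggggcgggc

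The matrix genes moved in both directions, with more members lower than higher among the elastic fibre genes, the integrins and laminins, and the collagen chains. Of 35 elastic fibre and matrix glycoprotein genes 19 fell and 6 rose (median log2 -0.59), of 29 integrin and laminin genes 11 fell and 5 rose (median -0.22), and of 29 collagen chains 10 fell and 5 rose (median -0.06). COL4A1 (chr13:110148963-110307157), a collagen IV chain of basement membranes, measured 1349, 1273 and 1412 CPM in scramble and 491, 455 and 437 CPM in KD (log2 -1.54, SE 0.08, adjusted p = 9.8e-08). COL18A1, another basement membrane collagen, fell by 2.74 and LAMC1, the shared laminin gamma chain, by 0.61 on the log2 scale. COMP, a matrix protein of cartilage and tendon, measured 251, 145 and 214 CPM against 51.9, 48.3 and 47.4 CPM. EMILIN2, an elastic fibre protein, fell by 2.08, and COL6A1, a microfibril collagen, went from 5279 ± 147 to 2804 ± 295 CPM.

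Against that direction, COL11A1, a fibrillar collagen of cartilage, measured 2.42, 0.480 and 1.05 CPM in scramble and 18.0, 22.8 and 31.3 CPM in KD (log2 4.18, SE 0.41, adjusted p = 1.5e-05). The integrin chains ITGB8, which binds latent TGF-beta, and ITGA11, which binds fibrillar collagen, rose by 4.00 and 3.43 on the log2 scale from at most 3.18 CPM in any scramble library. DCN, the small proteoglycan decorin, went from 2703 ± 488 to 4977 ± 411 CPM, and VCAN, the large proteoglycan versican, fell by 0.54. Of 29 proteoglycan genes 9 rose and 11 fell, and 15 of these 20 changed at least 2-fold. FN1, fibronectin, measured 17977 ± 952 CPM in scramble and 16729 ± 3051 CPM in KD, groups that overlapped (log2 -0.10, SE 0.11, adjusted p = 0.53). The sign of its fold change turned with the scaling, at 0.0021 with library size only.

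Genes for matrix turnover were divided. Of 49 proteases and inhibitors 11 rose and 16 fell. MMP3, stromelysin, measured 99.5, 125 and 84.9 CPM in scramble and 625, 549 and 600 CPM in KD (log2 2.52, SE 0.13, adjusted p = 1.1e-07), a rise that stood beside those of MMP1 and CTSK. TIMP3, a matrix-bound inhibitor of metalloproteinases, measured 847, 1139 and 1203 CPM in scramble and 228, 219 and 261 CPM in KD (log2 -2.17, SE 0.13, adjusted p = 2.3e-07). PLAU, the urokinase that activates plasminogen, measured 104, 131 and 123 CPM against 23.6, 25.4 and 24.8 CPM. TIMP3 and PLAU were lower in all 3 KD libraries than in any scramble library, as the naming rule asked of the steepest members.

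The cell cycle genes that passed the test were all higher in the KD group. Of 50 members tested 23 rose and none fell, 12 of them at least 2-fold, and the median fold change was 0.79 on the log2 scale. The summed level of the list was 422, 339 and 313 CPM in the scramble libraries and 493, 553 and 589 CPM in the KD libraries. The adipocyte markers ran the other way, with a summed level of 4742, 5301 and 6175 CPM in scramble and 2424, 1834 and 929 CPM in KD, and their part in the result was not tested. PRC1, which bundles microtubules of the central spindle, measured 5.68, 4.19 and 5.10 CPM in scramble and 9.99, 13.2 and 15.6 CPM in KD (log2 1.37, SE 0.19, adjusted p = 0.00024). CDC20, an activator of the anaphase-promoting complex, measured 2.84, 2.38 and 2.64 CPM against 6.09, 6.44 and 7.28 CPM (log2 1.33, SE 0.20, adjusted p = 0.00038). These groups did not overlap. BUB1B, a spindle checkpoint kinase, rose by 1.64, UBE2C, a ubiquitin-conjugating enzyme of mitosis, by 1.59, HMMR, a spindle protein, by 1.40, and MCM6, a subunit of the replicative helicase, by 0.58. The mitotic kinesin KIF20A was at 0.979, 1.21 and 0.502 CPM in scramble and 1.93, 2.11 and 4.58 CPM in KD (log2 1.67, adjusted p = 0.015), and it lost the call without KD replicate 3 (log2 1.17, adjusted p = 0.097) or without scramble replicate 3 (log2 1.38, adjusted p = 0.0565). The number of members that rose was 13 without scramble replicate 3 and 15 without scramble replicate 2 or KD replicate 2.

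The CHR element and the CCAAT box are the letters by which many mitotic promoters are recognised, and the promoters of PRC1 and CDC20 are shown because those genes had the smallest adjusted p among the members that rose and hold the CHR before the start. TTTGAA was found on either strand in 17 of 41 promoters of the list (41.5%) and in 12 of the 19 whose gene rose, beside 10.6% of all promoters. CCAAT was found in 30 of the 41 (73.2%) and in 17 of the 19, beside 36.5% of all promoters. The end of a CCAAT can overlap the start of a TTTGAA, and a CArG box can hold the letters CCAAT, as that of FLNA does. PRC1 is at chr15:90994536-90994615 on the minus strand and CDC20 at chr1:43358879-43358958 on the plus strand, with TTTGAA and CCAAT in capitals.
PRC1: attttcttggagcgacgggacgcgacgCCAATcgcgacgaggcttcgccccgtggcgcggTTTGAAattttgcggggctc
CDC20: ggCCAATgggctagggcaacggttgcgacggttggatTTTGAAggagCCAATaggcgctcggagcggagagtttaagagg

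A list that joins cell cycle inhibitors with p53 targets was measured as well. Its member SESN2 is also in the list of ATF4 and unfolded protein response genes below. Of 35 cell cycle inhibitors and p53 targets 14 rose and 3 fell (median log2 0.25). SESN2, a stress-induced inhibitor of mTORC1 signalling, rose by 1.85, PLK2, a p53-responsive kinase, by 1.30, and PMAIP1, the pro-apoptotic protein NOXA, by 1.08 on the log2 scale. CDKN1A, the CDK inhibitor p21, went from 112 ± 6.85 to 138 ± 19.2 CPM with an adjusted p of 0.043, and its call was lost in 6 of 13 alternative settings. CCND1, cyclin D1, measured 425 ± 61.1 CPM in scramble and 379 ± 35.1 CPM in KD, groups that overlapped (log2 -0.16, adjusted p = 0.29).

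**Figure D3:**
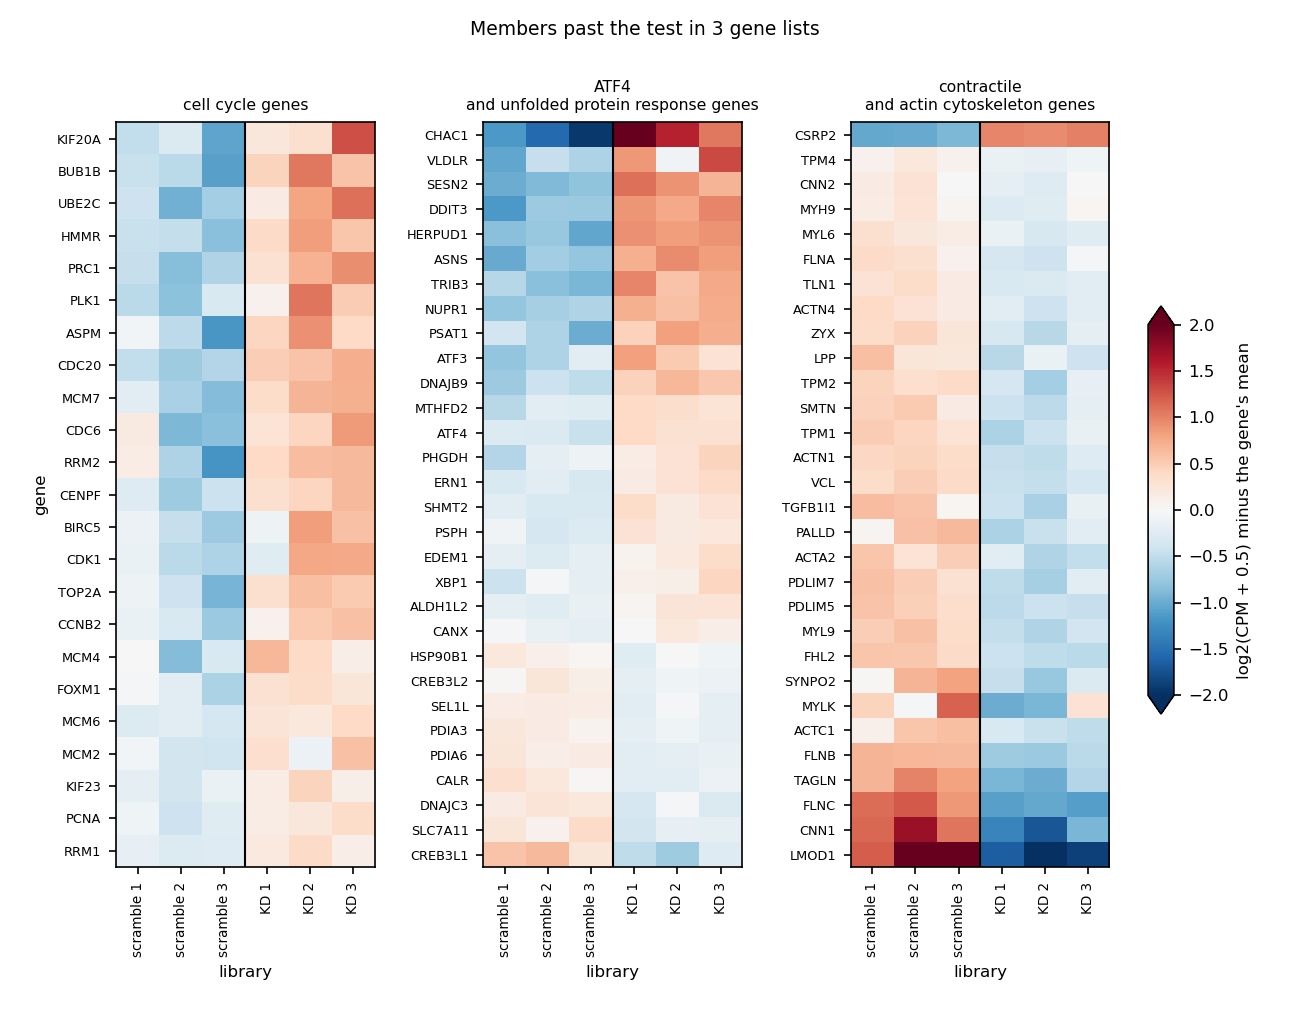
Each row is a gene that passed the test in the cell cycle, ATF4 and unfolded protein response, or contractile list, and each column 1 of the 6 libraries without LPS. Colour gives log2 of CPM plus 0.5, minus the gene's mean over the libraries, clipped at ±2, so red is above the mean. The 23 cell cycle genes are mostly red in the KD columns, the stress response genes divide into 21 risen and 9 fallen, and all contractile genes but CSRP2 are mostly blue there.

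Genes of the stress response that cells use when amino acids or protein folding fall short, some of them targets of the transcription factor ATF4, moved in both directions, and the steeper changes were rises. Of 38 ATF4 and unfolded protein response genes 21 rose, 11 of them at least 2-fold, and 9 fell, none of them 2-fold. Those that fell were HSP90B1, CALR, PDIA3, PDIA6, DNAJC3, SEL1L, CREB3L1, CREB3L2 and SLC7A11. The summed level of the list overlapped between the groups, at 8538, 8237 and 7738 CPM in scramble and 7690, 8180 and 8059 CPM in KD. HERPUD1, which helps to clear misfolded proteins from the endoplasmic reticulum, measured 37.2, 39.3 and 32.2 CPM in scramble and 127, 120 and 126 CPM in KD (log2 1.77, SE 0.09, adjusted p = 1.1e-07). DDIT3, the transcription factor CHOP, measured 8.22, 11.2 and 11.1 CPM against 35.3, 32.2 and 37.4 CPM. ASNS, asparagine synthetase, measured 10.7, 13.5 and 12.7 CPM against 36.5, 43.0 and 39.8 CPM (log2 1.70, SE 0.12, adjusted p = 8.3e-07). The KD libraries were well above the scramble libraries for these genes. HSPA5, the endoplasmic reticulum chaperone BiP and a marker of the folding branches, was at 1110 ± 29.9 CPM in scramble and 1201 ± 51.3 CPM in KD (log2 0.11, adjusted p = 0.25), and it passed only with library size as the scaling (log2 0.22, adjusted p = 0.041). With that scaling the members that fell numbered 5 in place of 9.

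The promoters of HERPUD1 and ASNS are shown because they hold TGATGNAA, the core of the composite element bound by ATF4 with C/EBP proteins. These letters were found on either strand in 4 of 32 promoters of the list (12.5%), all 4 of them among the 24 whose gene passed the test, beside 2.04% of all promoters. HERPUD1 is at chr16:56931930-56932009 on the plus strand, where the match is on the opposite strand, and ASNS at chr7:97872433-97872512 on the minus strand, with the match in capitals. ASNS, CDC20, PRC1 and FHL2 are named for these promoters only.
HERPUD1: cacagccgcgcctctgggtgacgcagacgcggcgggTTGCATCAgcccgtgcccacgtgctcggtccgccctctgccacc
ASNS: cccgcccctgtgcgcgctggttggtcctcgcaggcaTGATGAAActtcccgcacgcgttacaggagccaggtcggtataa

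Amino acid transporters and heat shock proteins moved in both directions. Of 28 amino acid transporters 10 rose and 8 fell, and each of the 6 that changed at least 2-fold was higher. SLC38A1, a glutamine transporter, measured 1.08, 0.442 and 0.589 CPM in scramble and 5.21, 8.36 and 10.1 CPM in KD (log2 3.48, adjusted p = 2.1e-05). SLC6A9, a glycine transporter, rose by 2.29, SLC1A4, a transporter of alanine, serine and cysteine, by 1.80, and SLC38A2 by 0.70 on the log2 scale, and SLC1A5, the main glutamine carrier of dividing cells, fell by 0.60. Of 29 heat shock proteins 11 fell and 4 rose, with 9 risen under library size scaling. CRYAB, the small heat shock protein alpha B-crystallin, measured 1897, 1704 and 2289 CPM in scramble and 329, 262 and 190 CPM in KD (log2 -2.91, SE 0.18, adjusted p = 3.3e-07). HSPB6, another small heat shock protein of muscle, measured 1263, 1213 and 1281 CPM against 338, 209 and 211 CPM. HSPA8, the constitutive HSC70, fell by 0.39, and HSPA6, a strictly inducible member, rose from 1.12 ± 0.316 to 4.99 ± 0.827 CPM.

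Of the redox genes that passed most fell, and of the metal-handling genes that passed most rose. Of 45 antioxidant and NRF2 target genes 19 fell and 6 rose (median log2 -0.34), and the 6 became 3 without scramble replicate 1 or without KD replicate 3. AKR1B1, aldose reductase, measured 506, 454 and 504 CPM in scramble and 170, 156 and 164 CPM in KD (log2 -1.58, SE 0.08, adjusted p = 9.8e-08). AKR1C1, AKR1C2 and AKR1C3, which reduce steroids and aldehydes, fell by 1.43, 1.58 and 1.24, but they are near-identical in sequence and the division of reads among them is uncertain. HMOX1 and SOD2, described above, went the other way. Of 25 metallothioneins and metal transporters 10 rose and 2 fell (median log2 0.48). STEAP4, a metalloreductase of iron and copper, measured 3.05, 4.63 and 5.93 CPM in scramble and 44.8, 56.1 and 52.0 CPM in KD (log2 3.49, SE 0.20, adjusted p = 2.1e-07). SLC39A8, a zinc and manganese importer, rose by 1.65, SLC40A1, the iron exporter ferroportin, by 1.28, and MT2A, an abundant metallothionein with close paralogs, by 0.50.

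Among genes of fuel use more fell than rose. The test was not passed by 14 fatty acid oxidation genes and 16 genes around the tricarboxylic acid cycle. The adipocyte markers with summed levels given above were lower in the same libraries, and their part in the result was not tested. Of 31 fatty acid oxidation genes 15 fell and 2 rose (median log2 -0.30). ACSL5, which activates fatty acids as acyl-CoA, measured 31.7, 41.2 and 43.0 CPM in scramble and 8.53, 8.02 and 7.53 CPM in KD (log2 -2.27, SE 0.13, adjusted p = 2.6e-07). CPT1A, which admits them to mitochondria, fell by 1.31, HSD17B4, of peroxisomal oxidation, by 1.13, and HADH, of mitochondrial oxidation, by 1.01. Of 31 genes around the tricarboxylic acid cycle 12 fell and 3 rose, and the 12 became 7 under library size scaling. PC, pyruvate carboxylase, fell by 1.54 and ACLY, the citrate lyase that feeds lipid synthesis, by 0.91. PDK4, the kinase that shuts pyruvate dehydrogenase, was uneven, at 247, 272 and 400 CPM in scramble and 139, 99.1 and 40.7 CPM in KD (log2 -1.72, SE 0.33, adjusted p = 0.0021).

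Of 34 glycolysis and pentose phosphate genes 11 fell and 4 rose, with a median near that of all genes at -0.09. PGD, which makes NADPH in the pentose phosphate pathway, fell by 1.42 and LDHA, lactate dehydrogenase, by 0.38, and SLC16A3, a lactate exporter, rose by 1.30. Of 33 genes of cholesterol synthesis and uptake 11 fell and 6 rose. STARD4, a cytosolic sterol carrier, fell by 1.83, APOE by 1.60 and SREBF1, the lipogenic transcription factor, by 1.23. Without LPS the genes of the respiratory chain were divided by genome. Of the 13 mitochondrially encoded genes 9 rose, none of them 2-fold (median log2 0.41), whereas of the 77 nuclear genes 3 rose and 1 fell (median 0.02). In the libraries with LPS 2 of the 13 rose and 3 fell, and 10 of the 77 rose and 1 fell. MT-CO3, a cytochrome c oxidase subunit, measured 11265, 10156 and 12260 CPM in scramble and 19021, 15767 and 16136 CPM in KD (log2 0.60, SE 0.09, adjusted p = 0.00033), and MT-CO1 went from 22506 ± 2906 to 29842 ± 2312 CPM. Of 76 cytosolic ribosomal protein genes 7 fell and 3 rose, shares below those of all genes in both directions, and the 7 became 3 under library size scaling and 4 without scramble replicate 2 or 3.

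Genes that activate or clear lipid hormones changed steeply. HSD11B1, which regenerates active cortisol inside adipose cells, measured 697, 507 and 726 CPM in scramble and 72.8, 57.5 and 44.1 CPM in KD, an 11.1-fold lower level (log2 -3.47, SE 0.18, adjusted p = 1.3e-07). The culture medium held dexamethasone, and of 27 glucocorticoid response genes 6 rose and 5 fell. TSC22D3, the glucocorticoid-induced leucine zipper, rose from 18.8 ± 1.73 to 64.5 ± 4.66 CPM and MAOB, a monoamine oxidase, by 4.17 on the log2 scale, and FKBP5, a classical target of the receptor, fell by 0.63. Of 38 genes of retinoid, steroid and aldehyde metabolism 13 fell and 6 rose (median log2 -0.58). CYP26B1, which degrades retinoic acid, measured 24.6, 29.5 and 41.2 CPM in scramble and 2.90, 3.16 and 3.18 CPM in KD (log2 -3.36, SE 0.19, adjusted p = 2.1e-07). ALDH1A3, which makes retinoic acid, fell by 2.39 and RARRES1, a retinoid-responsive gene, fell by 2.63. Retinoic acid and its synthesis and clearance were not measured.

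Of 26 prostaglandin and eicosanoid genes 10 fell and 2 rose (median log2 -0.57), and the pair of cyclooxygenases went apart. PTGS2, the inducible enzyme, measured 5.88, 7.34 and 7.59 CPM in scramble and 31.7, 36.3 and 22.1 CPM in KD (log2 2.12, SE 0.18, adjusted p = 4.7e-06). PTGS1, the constitutive enzyme, measured 1077, 821 and 822 CPM against 544, 568 and 677 CPM (log2 -0.60, adjusted p = 0.0022). EPHX1, an epoxide hydrolase, fell by 1.39. CYP4B1, a monooxygenase, varied widely within the groups, at 13.3, 45.0 and 67.8 CPM in scramble and 7.71, 4.39 and 1.35 CPM in KD (log2 -3.25, SE 0.58, adjusted p = 0.0013). The receptor PTGER3, described above, was among the members that fell.

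Among genes that cells induce early after a stimulus more rose than fell, in cells that had received no LPS but were kept in insulin and dexamethasone. Of 44 immediate-early and MAPK feedback genes 19 rose, 11 of them at least 2-fold, and 8 fell. NR4A3 (chr9:99821855-99866891), an orphan nuclear receptor induced within minutes by cAMP and calcium signals, measured 18.7, 22.5 and 20.9 CPM in scramble and 129, 135 and 95.9 CPM in KD (log2 2.54, SE 0.13, adjusted p = 1.1e-07). NR4A1, its relative, measured 26.1, 28.1 and 35.4 CPM against 97.7, 86.8 and 68.6 CPM. FOS rose by 1.56 and FOSB by 1.40, whereas their paralog FOSL1 fell by 0.76 from 762 ± 62.8 to 448 ± 48.7 CPM. PDE4B and PDE4D, phosphodiesterases that break down cAMP, are in a list of 44 regulators of G-protein signalling and cAMP of which 7 rose and 11 fell. PDE4B measured 3.09, 3.50 and 4.10 CPM in scramble and 28.1, 31.5 and 31.9 CPM in KD (log2 3.10, SE 0.14, adjusted p = 7.2e-08), and PDE4D rose by 2.17.

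More receptors and guidance cues fell than rose, as was the case for all genes tested, of which 15.1% fell and 12.1% rose. Of 66 G protein-coupled receptors 16 fell and 8 rose, and beside PTGER3 the serotonin receptor HTR2A fell by 3.59 and F2RL2, a protease-activated receptor, by 3.69 on the log2 scale. Of 55 axon guidance genes 18 fell and 10 rose, and the 10 became 6 without scramble replicate 3 or KD replicate 3. SLIT3, a secreted ligand of ROBO receptors that stromal cells make, measured 420, 515 and 494 CPM in scramble and 99.8, 84.5 and 88.7 CPM in KD (log2 -2.39, SE 0.10, adjusted p = 4.4e-08). The potassium channels KCNK3 and KCNK15, both of the background leak family, went apart at -3.12 and 3.28. TNFRSF11B, the decoy receptor osteoprotegerin, rose from 17.1 ± 5.84 to 125 ± 33.1 CPM, and GAS6, the ligand of TAM receptor kinases, from 74.9 ± 3.82 to 313 ± 51.0 CPM. The receptors for tumour necrosis factor also went apart, with TNFRSF1A fallen by 0.98 and TNFRSF1B risen by 1.19.

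Developmental pathways changed member by member. Of 44 Wnt genes 8 rose and 9 fell. WNT5A, a ligand of the branch that does not use beta-catenin, rose from 113 ± 24.8 to 337 ± 48.4 CPM, and its receptor ROR2 from 6.96 ± 2.25 to 40.7 ± 7.61 CPM. AXIN2, a common readout of the beta-catenin branch, fell from 5.13 ± 0.687 to 1.27 ± 0.552 CPM. Of the secreted inhibitors SFRP2 rose by 2.77 and DKK1 fell by 0.86. Of 47 TGF-beta and BMP genes 13 rose and 16 fell. SMAD6, an inhibitor that BMP signals induce, measured 105, 88.2 and 99.9 CPM in scramble and 24.2, 27.2 and 25.0 CPM in KD (log2 -1.94, SE 0.09, adjusted p = 9.7e-08), and BMP2, a ligand, rose by 1.53 as its antagonist GREM1 did by 1.85. NOTCH3, the Notch receptor of mural cells, fell by 2.98. Of 14 Hedgehog genes 6 fell and 1 rose, with the transcription factor GLI2 down by 1.14, the co-receptor CDON by 1.48, and GAS1, another co-receptor, up by 0.87. Among mesenchymal transcription factors FOXF1 rose by 3.29, and OSR1 and MEF2C fell by 1.86 and 1.95.

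Immune genes outside the cytokines did not move as a block. Of 41 interferon-stimulated genes 12 rose and 7 fell. IFITM1, a membrane restriction factor, rose by 1.40 on the log2 scale, whereas GBP1, a guanylate-binding protein, measured 53.6, 73.3 and 71.4 CPM in scramble and 25.5, 24.2 and 24.7 CPM in KD. Of 29 MHC genes 9 fell and 2 rose, and the 9 became 5 under library size scaling. HLA-DPA1, a class II chain, fell by 2.00 and CD74, the invariant chain, by 1.62, at levels of 62.3 ± 3.92 and 19.7 ± 1.58 CPM in scramble. HLA genes are alike in sequence, so division of reads among them is uncertain. Of 35 complement and coagulation genes 14 fell and 6 rose. A2M, a broad protease inhibitor, rose from 31.6 ± 10.6 to 185 ± 16.9 CPM, and C1QTNF1, an adiponectin paralog, and VWF fell by 2.35 and 2.12. CD163, a scavenger receptor used as a macrophage marker, rose from 4.38 to 69.6 CPM on average (log2 3.99) in libraries where the leukocyte genes AIF1 and TYROBP had 0 counts.

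**Figure D4:**
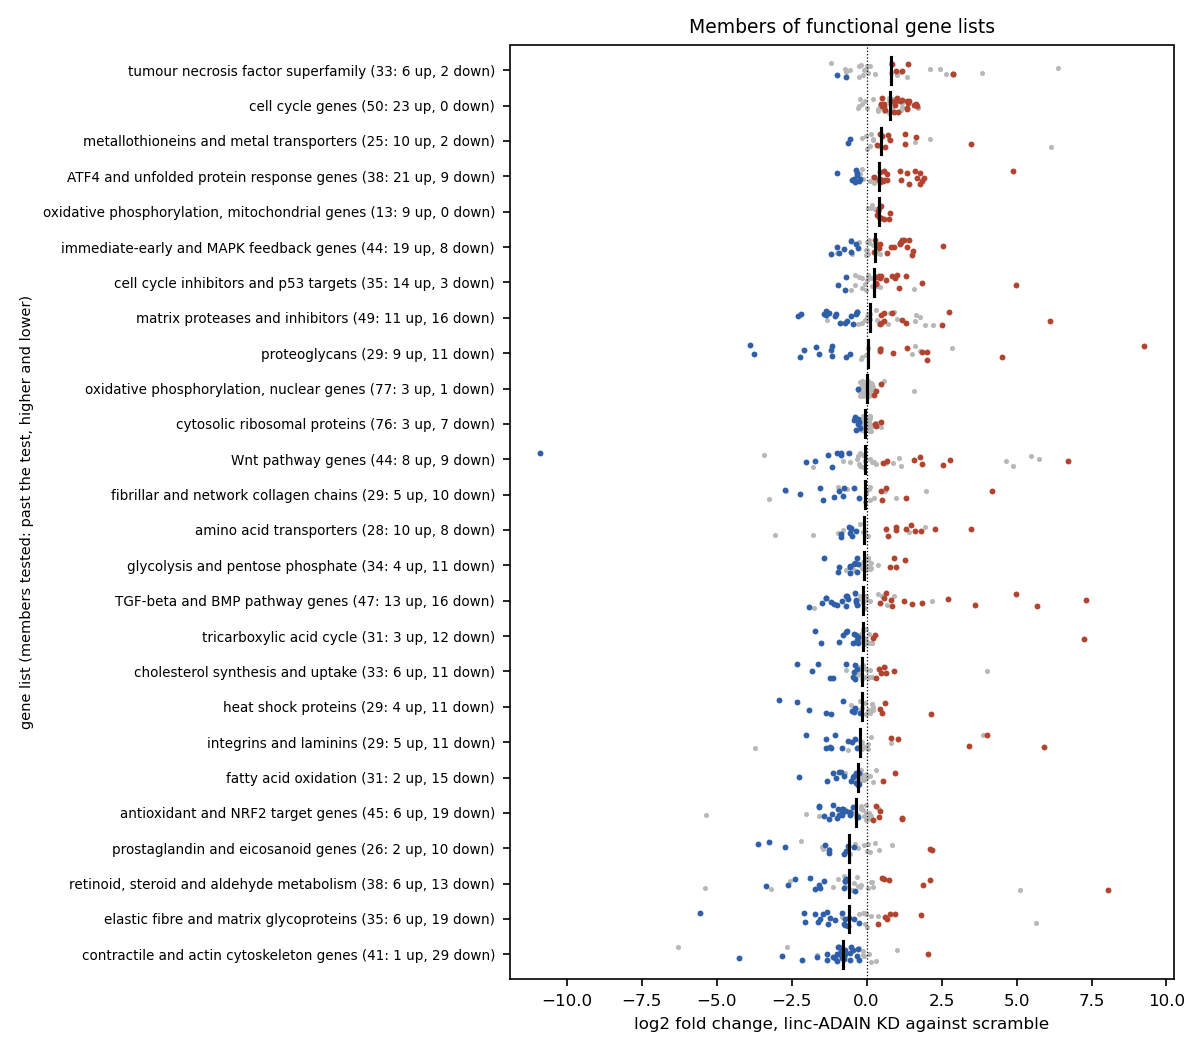
Log2 fold change, linc-ADAIN KD over scramble, of each tested member (points) of 26 gene lists, red where it rose, blue where it fell and grey where it did not pass. Short bars mark each list's median and the dotted line the median of all genes, 0.024. The lists are in order of their medians, from -0.80 for contractile genes to 0.80 for the tumour necrosis factor superfamily, in which 6 of 33 members rose and 2 fell. The other 25 members of that superfamily did not pass. Its summed level was lower in KD, at 1203 to 1237 CPM in scramble and 1077 to 1167 CPM in KD libraries.

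The share of genes that fell differed between parts of the genome. Of 228 blocks of 10 Mb that held at least 20 genes at 1 CPM or more, the lowest median fold change was that of 10 to 20 Mb on chromosome 17, at -0.53 on the log2 scale. Of its 67 genes 37 fell (55.2%) and 1 rose, where 20.1% of all 11893 genes at 1 CPM or more with a position fell. A like share fell at 40 to 50 Mb on chromosome 13, with 27 of 49 genes (55.1%, median -0.35), and at 150 to 160 Mb on chromosome 3, with 17 of 32 genes (53.1%). There 7 and 3 genes rose. The next lowest median of any block was -0.36 and the highest 0.29. In the libraries with LPS the block at 10 to 20 Mb on chromosome 17 had a median of -0.63. In the adjoining block, 20 to 30 Mb, 20 of 44 genes fell (45.5%) and 3 rose. Its median was -0.28 without and -0.25 with LPS. COL4A1, described above, starts in the block at 110 to 120 Mb on chromosome 13, where 10 of 23 genes fell and 1 rose (median -0.30). Other genes of the functional lists were not set against their blocks, and the part of position in their changes was not tested. Near the linc-ADAIN gene itself (chr9:1045625-1048641, plus strand, in the annotation used), 9 genes within 2 Mb were tested and 5 passed, beside 27.2% of all genes tested. KANK1, a regulator of actin and adhesions, fell by 0.62 from 93.7 to 60.9 CPM on average, VLDLR, a lipoprotein receptor, rose by 1.91, SMARCA2, a chromatin remodelling ATPase, rose by 0.26, and PUM3 fell by 0.43. DOCK8, a guanine nucleotide exchange factor, rose by 2.74 but had at most 46 counts in any library. In edgeR's quasi-likelihood test of the libraries with LPS, KANK1 and PUM3 passed (adjusted p = 0.010 and 0.0085). There VLDLR, SMARCA2 and DOCK8 did not pass (adjusted p = 0.18, 0.15 and 0.74). The nearby genes DMRT1, DMRT2 and DMRT3 had at most 4 counts in any library without LPS and were not tested.

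The same hairpins were compared in the 6 libraries with LPS, which the comparison above did not use, and 26.9% of the genes tested there passed. Of the 514 genes at least 2-fold higher without LPS that had 10 counts in every library and no overlap, 504 were higher with LPS as well, 388 of them past the adjusted p threshold. Of the 488 corresponding lower genes 477 were lower with LPS, 427 of them past the threshold. The labels do not say whether these libraries came from the same transduced populations, so they may repeat the measurement and not the knockdown. A different size of effect with and without LPS was found for 1.28% of 17173 genes and for 13 of the 152 genes with a full set of values here. MMP3 was among them, at 2.52 without and 4.30 with LPS, and GBP1, at -1.41 without and 0.01 with LPS. The cell cycle list had a median of 0.79 both without and with LPS, the contractile list -0.80 and -0.43, and the mitochondrially encoded respiratory genes 0.41 and 0.10.

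**Figure D5:**
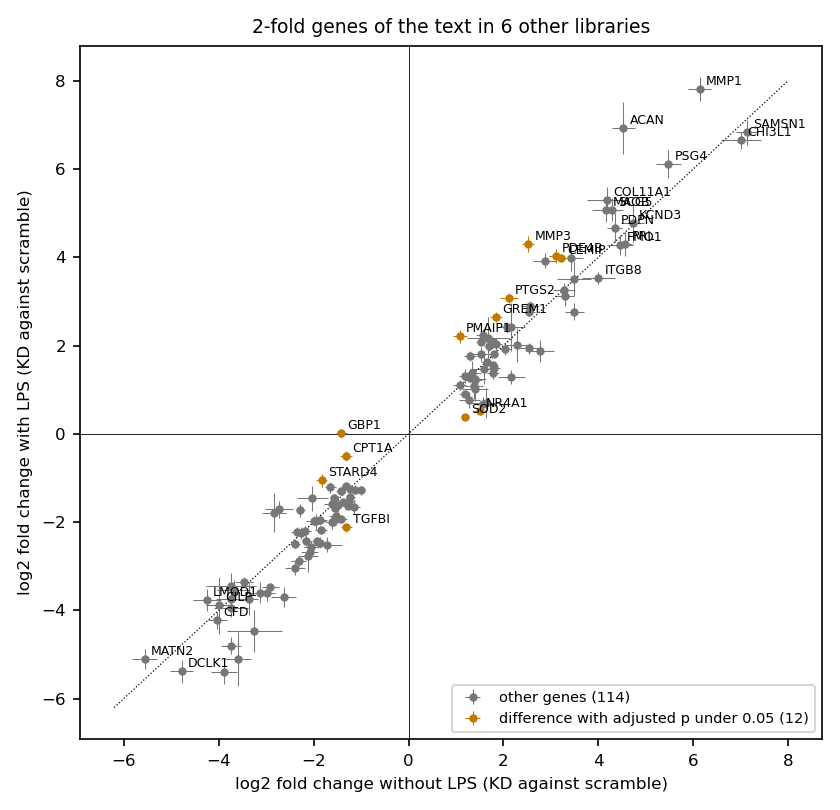
Log2 fold change of linc-ADAIN KD over scramble without LPS (x axis) and with LPS (y axis) for the 126 genes of the text that changed at least 2-fold without LPS. Bars are standard errors and the dotted diagonal marks equal effects. The 12 genes whose effects differed at an adjusted p under 0.05 are in orange, and 125 of the 126 have the same direction on both axes.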

How the data were processed

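RNA of day-14 ASC52telo hTERT adipocytes was sequenced from stranded poly(A) libraries. According to the methods and processing notes, reads were demultiplexed with bcl2fastq 2.19 and pseudoaligned with kallisto 0.44.0 to human transcriptomes (GRCh38). The authors deposited 1 table of estimated counts per gene name for all 12 libraries, whose values are whole numbers. The study's test was DESeq2 1.32.0. Here the 6 libraries without LPS were fitted with edgeR 4.0.16 (R 4.3.3, quasi-likelihood F test, trimmed mean of M values), keeping genes with at least 10 counts in total, and p-values were adjusted by Benjamini-Hochberg over all 16217 genes. Levels are in CPM, computed here. An error after ± is the SD of 3 libraries.

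The 49 functional and 7 marker lists, 2034 genes, and the genes named were chosen with earlier results of these data known. 6 of these genes were not among the gene names of the table. Named genes were the 10 steepest changes in each direction, the 8 most abundant changes in each direction, and in each list up to 4 steepest and 2 most abundant members. The steepest and most abundant had to change at least 2-fold, with 10 counts in every library and groups that did not overlap. FHL2, CDC20, PRC1 and ASNS were added for their promoters, and the genes near the locus and cell type markers for those checks. The stress response genes that fell were named so that both directions are given. Promoters came from RefSeq (GRCh38.p14), of which 12043 matched tested genes, and gene positions from GENCODE release 44. The effect with LPS was fitted to the other 6 libraries, and its difference to all 12 with an interaction term. The scripts were tested on simulated data. Alternatives were DESeq2 1.42.0, other size factors, library size only, other filters, a fit of all 12 libraries, a replicate block and each library left out. The depth, 33405328 to 53837400 counts per library, leaves few counts to genes under 1 CPM. Rows with no gene name held 0.235 to 0.274% of counts in the 6 libraries and were left out. Results for 2 genes that the naming rule picked are not reported here.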

Additional observations from a re-analysis of the deposited data

Results flagged for a closer look

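The effect of the knockdown differed between libraries with and without LPS, in edgeR's interaction test over 12 libraries, for 13 of the 152 genes given with values, beside 1.28% of 17173 genes. The differences below are the log2 fold change with LPS minus that without, and the genes had been chosen by their change without LPS, which enters the difference. For genes that rose without LPS, the effect was larger with LPS for MMP3 by 1.78, PMAIP1 by 1.13, PTGS2 by 0.96, PDE4B by 0.94, GREM1 by 0.79 and CEMIP by 0.78. It was smaller with LPS for NR4A1, at a difference of -0.98, and for SOD2, at -0.81. For genes that fell without LPS, the difference was 1.43 for GBP1, 0.82 for CPT1A, 0.78 for STARD4 and 0.56 for FHL2, whose falls were smaller or near 0 with LPS, and -0.81 for TGFBI, whose fall was larger.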

How the results depend on the processing

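The genes changed at least 2-fold, 1260 in all, numbered 1435 with DESeq2, 1264 with size factors of the RLE kind, 1322 with library size only, 1276 with edgeR's own filter on expression, 1327 with no filter, 1247 in a fit of all 12 libraries, and 1074 to 1285 when each library was left out. The genes past the adjusted p threshold, 4411, numbered 4378 to 4787 in these settings and 3181 to 4167 with a library left out. The replicate numbers did not pair the samples (deviations of same-numbered libraries correlated at -0.108, -0.0356 and -0.114), and a fit with the replicate number as a block gave 1161 and 3857 genes. Of 1976 comparisons of the 152 named genes with an alternative, 1965 kept direction and side of the threshold, 8 lost it (KIF20A and CDKN1A), 1 gained it (HSPA5) and 2 turned, both for FN1, at 0.0021 with library size only and within a range of -0.252 to 0.0039 with a library left out, where the cause was not tested. Of 1001 comparisons of counts of 5 or more list members, 34 moved by over 1.5 times.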

Other observations

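Further gene groups were measured that the comparison above does not describe. Their counts, here and in the next paragraph, stand beside 12.1% of all genes tested that rose and 15.1% that fell. Of 35 cadherins and protocadherins 4 rose and 11 fell (median log2 -0.35), PCDH10 among them, and of 32 desmosome and cell junction genes 5 rose and 7 fell, the 7 becoming 4 without KD replicate 3 or scramble replicate 1 and 3 with library size only. Of 43 neuronal adhesion and synapse genes 12 rose and 6 fell (median 0.37), 9 and 5 of them at least 2-fold. Of 24 YAP and TAZ target genes 4 rose and 5 fell, and the 5 became 0 with library size only or without scramble replicate 2, 1 without KD replicate 1 or scramble replicate 3, and 3 without KD replicate 2 or scramble replicate 1. Of 46 regulators of small GTPases in movement 6 rose and 9 fell, and of 44 regulators of G-protein signalling and cAMP, PDE4B and PDE4D included, 7 rose and 11 fell, the 7 becoming 11 with library size only and the 11 becoming 6 without scramble replicate 2.

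Of 31 receptor tyrosine kinases 2 rose and 6 fell, and of 41 growth factor ligands 8 rose and 7 fell. Of 34 potassium channels 8 rose and 8 fell, and of 39 calcium, sodium and TRP channels 8 rose and 9 fell, with the 8 reduced to 3 without KD replicate 3 and to 4 or 5 without any other library. Of 18 Notch genes 3 rose and 3 fell. Of 55 mesenchymal transcription factors 13 rose and 12 fell, and of 43 HOX and other position factors 6 rose and 4 fell, the 6 becoming 3 without scramble replicate 2. Of 22 circadian clock genes 4 rose and 5 fell, of 46 lysosome and autophagy genes 11 rose and 13 fell, the 11 becoming 7 without scramble replicate 2, and of 24 genes of branched-chain amino acid breakdown 3 rose and 8 fell, the 8 becoming 5 without scramble replicate 2 and 4 without scramble replicate 3. Of 7 bone and cartilage markers 2 rose and 1 fell, of 8 epithelial markers 1 rose, and of 8 endothelial markers 2 fell.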
